A study of Mus musculus with 4 samples.

Results

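The sodium, chloride and bicarbonate transport genes of the colonocyte were read in 4 mouse adenoma colonoid lines, as 10 genes chosen by symbol: Slc9a2, Slc9a3, Slc9a4, Slc26a3, Cftr, Scnn1a, Atp12a, Car1, Car2 and Car4. The choice was made with earlier results of these data known. All 10 had a row among the 16857 genes of the expression table, and 9 passed the filter on low values. A colonoid is a cultured, self-organizing body of colon epithelium, and RNA of each line was measured by bulk sequencing in 1 library. The G2 group held lines 157 (replicate 1) and 236 (replicate 2), labelled homozygous for LSL-mTERT, an allele of the telomerase gene Tert. The G0 group held lines 75 (replicate 1) and 179 (replicate 2), labelled heterozygous for it. The G2 lines are of generation 2 and the G0 lines of generation 0, so generation and genotype cannot be told apart here. All 4 lines carry the Apcmin background and are labelled Apc-null, so the loss of Apc is shared by both groups. No label ties the lines to separate animals or gives an age or treatment. The p-values weigh the group difference against the spread between these lines, estimated in part from other genes. They therefore speak for these lines only. The series sets colonoids of low against high chromosomal instability without naming which group is which, and the comparison here asks how transcripts of this transport system differ between G2 and G0 lines.

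Absorptive colonocytes take up salt mainly by paired exchange at the luminal membrane: Na+/H+ exchangers bring in sodium, and a Cl-/HCO3- exchanger brings in chloride. Carbonic anhydrases supply the protons and bicarbonate that these exchangers use. In the distal colon sodium also enters through the epithelial sodium channel ENaC under the control of aldosterone, and crypt cells secrete chloride through the channel Cftr.

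Levels are normalized counts, which are whole numbers recovered from the deposited log2 values and divided by the authors' size factors. Totals lay between 16545429 and 17901744 counts per library. Tert stood at 0.0 and 1.0 normalized counts in the G2 libraries, against 93.3 and 97.5 in the G0 libraries, so the groups differed at the labelled gene. Transcripts of the Y-linked genes Ddx3y, Eif2s3y, Kdm5d and Uty lay between 296.2 and 526.4 in the G2 libraries and at 0.0 in both G0 libraries, so the sex of the lines and the group cannot be told apart in any result here. The 11 epithelial markers summed to 162805.4 and 169858.3 normalized counts in G2 and to 126351.1 and 171512.6 in G0. The 5 stem cell markers summed to 11506.9 and 14419.5 in G2 and to 8245.0 and 8518.5 in G0, with Olfm4 at 0 throughout. Only Axin2 passed among them (7534.5 and 8977.0 in G2, against 4613.0 and 4760.0 in G0, adjusted p = 0.0171, limma). The ratio of G2 over G0 was 0.971 for Lgr5, 0.848 for Ascl2 and 1.58 for Smoc2 (adjusted p = 0.876, 0.392 and 0.0817, limma). The 8 goblet cell markers summed to 353.0 and 210.2 in G2 and to 180.7 and 266.1 in G0, of which Clca1 rose (67.6 and 26.4 in G2, against 2.0 and 1.0 in G0; adjusted p = 0.00911) and Fcgbp fell (38.3 and 45.0 in G2, against 95.2 and 137.1 in G0; adjusted p = 0.0338, limma). Clca1 passed the filter on low values through the G2 libraries alone. The fibroblast markers (6 of 7 with a row, Dcn and Pdgfra at 0) summed to 10.1 and 10.8 in G2 and to 4.9 and 4.1 in G0. The leukocyte markers (4 of 7 with a row, Ptprc and Itgam at 0) summed to 19.2 and 6.8 in G2 and to 1.0 in each G0 library. The endothelial markers (3 of 4 with a row) summed to 52.4 and 68.4 in G2 and to 18.7 and 23.4 in G0, nearly all of it Vwf. In bulk RNA a change in the number of cells of a type and a change in RNA per cell cannot be told apart.

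Of the 9 genes tested, 5 rose in G2 (Slc9a2, Slc9a3, Slc9a4, Atp12a and Car1), 1 fell (Scnn1a) and 3 did not pass (Cftr, Car2 and Car4). The test was limma on log2(normalized count + 1) with a Benjamini-Hochberg adjusted p under 0.05 over 13981 genes, of which 10.5% passed, 5.93% as higher and 4.56% as lower in G2. The median log2 fold change was 2.38 over the 9 genes and 0.01 over all genes tested, and Car4 passed the filter through a single G2 library. Because the genes were chosen with earlier results of these data known, these counts and medians are a description. They are no test of the genes against all others. In 8 of the 9 the libraries of the groups did not overlap, with G2 above in 6 and below in 2. Of all genes tested 57.8% had no such overlap, 29.2% with G2 above and 28.6% with G2 below. When any 1 library was left out, 0 of the 6 calls passed limma, with 0 to 2 calls over all genes and 2431 to 3234 at an unadjusted p under 0.05. Without a filter on low values 225 genes passed in all, and of the 10 transport genes only Slc9a3 and Slc9a4 did (adjusted p = 0.0307 and 0.00348 by limma).

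**Figure D1:**
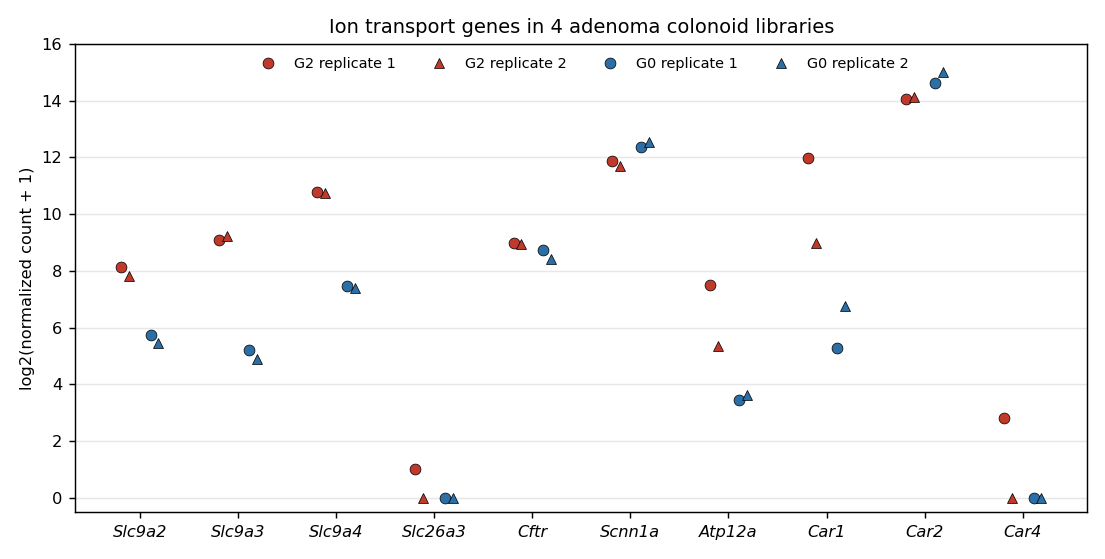
Level of each of the 10 transport genes in each library, as log2(normalized count + 1); circles are replicate 1 and triangles replicate 2 of G2 (red, left of each pair) and of G0 (blue). The 3 Slc9a genes, Atp12a and Car1 lie higher in both G2 libraries, Scnn1a and Car2 lie lower, and Slc26a3 and Car4 are at or near 0 in all 4.

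The 3 Na+/H+ exchanger genes rose together and by similar amounts in both G2 lines. Slc9a3 encodes NHE3, the main luminal sodium absorber of the gut, on chromosome 13 from 74086255 to 74169442 (GRCm38.p6). It had 545.6 and 597.2 normalized counts in G2, against 36.3 and 28.4 in G0. The means were 571.4 ± 36.5 in G2 and 32.4 ± 5.6 in G0 (SD, n = 2 each), 17.6-fold apart, with a log2 fold change of 4.11 and an SE of 0.24 (adjusted p = 0.000333, limma). Slc9a4 encodes NHE4, best known from the basolateral membrane of gastric parietal cells, and lies on chromosome 1 from 40579986 to 40630731. It had 1767.9 and 1731.1 normalized counts in G2, against 173.8 and 168.6 in G0. The libraries of each group lay close together, and G2 was 10.2-fold higher (log2 fold change 3.35, SE 0.15, adjusted p = 0.000165, limma). Slc9a2 encodes NHE2, another luminal exchanger, and is the next protein-coding gene on chromosome 1, from 40681712 to 40768885. It had 281.4 and 224.8 normalized counts in G2, against 53.0 and 42.7 in G0, 5.29-fold higher (log2 fold change 2.38, SE 0.27, adjusted p = 0.00345, limma).

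Slc9a2 and Slc9a4 are neighbours, and the protein-coding genes on the outer side of each did not pass the test. Mfsd9, next to Slc9a2, had 148.2 and 159.3 normalized counts in G2, against 142.4 and 181.8 in G0 (adjusted p = 0.881, limma). Il18rap, next to Slc9a4, had 47.4 and 97.7 in G2, against 144.3 and 105.6 in G0 (adjusted p = 0.222, limma). Beside Slc9a3, Cep72 had 162.4 and 203.3 in G2, against 95.2 and 100.6 in G0 (adjusted p = 0.0651), and Exoc3 had 797.7 and 879.7 in G2, against 893.5 and 948.8 in G0 (adjusted p = 0.577, limma). The coding sequences of the exchangers are 60.1% to 67.0% identical over their aligned bases. No stretch of 50 bases in their annotated transcripts occurs in a transcript of another gene.

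Of 10 other Na+/H+ exchanger and partner genes tested, 1 rose and 0 fell, against 5.93% and 4.56% of all genes tested. Their median log2 fold change was -0.02. The gene that rose was Slc9a9, which encodes the endosomal exchanger NHE9, at 18.2 and 28.3 normalized counts in G2, against 4.9 and 3.0 in G0 (adjusted p = 0.0401, limma). Its call was lost after quantile normalization (adjusted p = 0.0630) and on the deposited log2 values (0.0521). It was also lost without an intensity trend (0.0537) and without a filter on low values (0.137, limma). Slc9a3r1, the PDZ scaffold NHERF1 that holds NHE3 and Cftr at the luminal membrane, was named after its values were seen. It had 4931.5 and 4122.0 normalized counts in G2, against 5468.2 and 6015.6 in G0, and did not pass (adjusted p = 0.190, limma).

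Slc26a3 encodes DRA (down-regulated in adenoma), the luminal Cl-/HCO3- exchanger of the colon, and its transcript was at or under the floor in all 4 libraries. It had a single count in G2 replicate 1, and 0 in G2 replicate 2 and in both G0 libraries. A count of 0 allows a level of up to 3 counts, which is 2.93 to 3.05 normalized counts in these libraries. The gene lies on chromosome 12 from 31433142 to 31473922, and its neighbours Dld and Cbll1 had between 718.2 and 979.0 normalized counts in every library.

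The promoters of Slc9a3 and Slc26a3 are shown because these genes stand for the 2 sides of the paired exchange, the first 17.6-fold higher in G2 and the second near 0 throughout. Both windows are RefSeq sequence of GRCm38.p6 on the plus strand, 250 bases before a start site and 50 from it, chr13:74121163-74121462 for Slc9a3 and chr12:31437969-31438268 for Slc26a3. Both start sites lie inside the gene spans given above, which begin further upstream, so each window belongs to a start within the gene and not to its outermost one. Capitals mark GC boxes (GGGCGG) and TATA boxes (TATAAA), searched on both strands.
Slc9a3 promoter: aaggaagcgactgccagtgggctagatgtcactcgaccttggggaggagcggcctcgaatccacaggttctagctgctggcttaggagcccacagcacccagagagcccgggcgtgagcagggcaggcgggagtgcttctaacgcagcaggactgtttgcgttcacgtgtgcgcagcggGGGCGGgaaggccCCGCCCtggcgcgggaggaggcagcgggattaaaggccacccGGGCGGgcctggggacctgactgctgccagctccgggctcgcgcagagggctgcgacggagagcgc
Slc26a3 promoter: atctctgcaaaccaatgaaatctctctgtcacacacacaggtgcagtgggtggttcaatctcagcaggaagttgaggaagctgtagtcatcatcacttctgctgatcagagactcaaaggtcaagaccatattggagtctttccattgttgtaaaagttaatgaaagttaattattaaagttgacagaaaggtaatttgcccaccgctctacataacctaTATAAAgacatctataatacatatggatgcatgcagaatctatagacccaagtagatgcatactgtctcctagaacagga
The Slc9a3 window held 3 GC boxes, starting 71, 58 and 16 bases before the start site of the window, and 0 TATA boxes. The Slc26a3 window held 0 GC boxes and 1 TATA box, which starts 30 bases before its start site. Of 32851 RefSeq promoter windows of this length 35.7% held a GC box and 13.6% a TATA box. The Cftr window held 6 GC boxes, of which 3 overlap, and the Car4 window held 1 TATA box, which lies downstream of the start. The motif TTTATG of CDX factors, in 11.9% of all windows, and the motif AGATAA of the GATA factors, in 11.2%, were in none of the 4 windows. The other 6 genes had no entry of this kind to match.

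Among 10 other anion exchanger and bicarbonate transporter genes tested, 3 rose and 0 fell, against 5.93% and 4.56% of all genes tested. Their median log2 fold change was 0.66. Slc26a2, a sulphate transporter of colon epithelium, had 2806.6 and 2174.9 normalized counts in G2, against 972.1 and 701.9 in G0, 2.98-fold higher (adjusted p = 0.00547, limma). Its call was lost without an intensity trend (adjusted p = 0.065) and without a filter (0.132, limma). Slc4a8, a sodium-driven Cl-/HCO3- exchanger, had 384.2 and 377.3 in G2, against 89.4 and 93.5 in G0, 4.17-fold higher (adjusted p = 0.00216, limma). Slc26a1, another sulphate and oxalate exchanger, had 13.1 and 14.7 in G2, against 0.0 and 1.0 in G0 (adjusted p = 0.0238, limma). With 28 counts in G2 and 1 in G0, its ratio was 27.8, with exact 95% counting bounds of 4.60 and 1138, and the ratio of means was 13.7 without G0 replicate 1. Slc26a1 passed the filter on low values through the G2 libraries alone, and its call was lost without a filter (adjusted p = 0.111, limma).

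Cftr encodes the cAMP-regulated chloride channel of crypt cells, on chromosome 6 from 18170687 to 18322770. It had 507.3 and 497.5 normalized counts in G2, against 426.1 and 342.3 in G0. Both G2 libraries were above both G0 libraries, but the difference did not pass (log2 fold change 0.39, SE 0.18, adjusted p = 0.212, limma), and its 95% interval ran from -0.03 to 0.82. The neighbour Cttnbp2 had 42.4 and 85.0 normalized counts in G2, against 20.6 and 17.3 in G0, and did not pass (adjusted p = 0.0626, limma). Of 11 partner genes of chloride secretion tested, 1 rose and 3 fell, against 5.93% and 4.56% of all genes tested. Their median was -0.16. Slc12a2 encodes NKCC1, the carrier that loads chloride into the cell across the basolateral membrane. It had 7123.0 and 7344.6 normalized counts in G2, against 4893.8 and 3357.2 in G0, 1.75-fold higher (adjusted p = 0.0397, limma). The call was lost under total-count scaling (adjusted p = 0.0535), quantile normalization (0.0571), no trend (0.162) and no filter (0.222).

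The 3 secretion partners that fell were a potassium channel and a pair of receptors. Kcnn4, a calcium-activated potassium channel that helps drive chloride secretion, had 409.4 and 449.6 normalized counts in G2, against 1362.9 and 1929.0 in G0, 3.83-fold lower (adjusted p = 0.00224, limma). Gucy2c, the receptor for guanylin and for bacterial heat-stable enterotoxin, had 52.4 and 38.1 in G2, against 186.6 and 229.6 in G0, 4.59-fold lower (adjusted p = 0.00582, limma). Without a filter the calls of Kcnn4 and Gucy2c were lost (adjusted p = 0.0999 and 0.104, limma). The adenosine receptor gene Adora2b had 1.0 and 0.0 in G2, against 11.8 and 8.1 in G0, 20.1-fold lower on pooled counts, with counting bounds of 3.22 and 834 (adjusted p = 0.0444, limma). It passed in 4 of the 10 alternatives that kept all libraries, with adjusted p = 0.0502 to 0.133 by limma in the other 6, and its ratio of means was 9.87 without G2 replicate 2. Adora2b passed the filter on low values through the G0 libraries alone. The chloride channel gene Ano1 and the potassium channel genes Kcnq1 and Kcne3, chosen after their values were seen, did not pass (adjusted p = 0.377, 0.235 and 0.584 by limma).

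The 3 subunit genes of ENaC did not move the same way: Scnn1a fell while Scnn1b and Scnn1g rose. The channel is built from the alpha, beta and gamma subunits that these genes encode. Scnn1a, on chromosome 6 from 125314271 to 125344943, had 3774.8 and 3286.2 normalized counts in G2, against 5256.1 and 6009.5 in G0. It was 1.59-fold lower in G2 (log2 fold change -0.67, SE 0.14, adjusted p = 0.0318, limma). The call of Scnn1a was lost without an intensity trend (adjusted p = 0.139) and without a filter (0.147, limma). Its neighbours Ltbr and Tnfrsf1a did not pass (adjusted p = 0.785 and 0.838, limma). Scnn1b had 78.7 and 88.9 normalized counts in G2, against 2.0 and 3.0 in G0, 33.4-fold higher (log2 fold change 4.61, SE 0.44, adjusted p = 0.00182, limma). Without a filter this call was lost (adjusted p = 0.0586, limma). Scnn1g had 36.3 and 11.7 in G2, against 1.0 and 0.0 in G0 (adjusted p = 0.0218, limma), and with a single G0 count its ratio was 47.7, with counting bounds of 8.16 and 1923. The ratio of means was 23.9 without G2 replicate 1, 74.0 without G2 replicate 2 and 24.5 without G0 replicate 2. Scnn1g passed the filter on low values through the G2 libraries alone. Its call was lost without an intensity trend (adjusted p = 0.0707) and without a filter (0.155, limma). Per kilobase of merged exon, the level of Scnn1a was 854 normalized counts in G2 and 1363 in G0. On the same scale Scnn1b stood at 31.8 in G2 and 0.95 in G0, and Scnn1g at 8.03 in G2 and 0.16 in G0, so the alpha transcript was the most abundant of the 3 in every library.

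Of the 13 genes for the other ENaC subunits, channel-activating proteases and the mineralocorticoid pathway, 2 rose (Scnn1b and Scnn1g) and 1 fell. Their median was 0.33, and of all genes tested 5.93% rose and 4.56% fell. The gene of the list that fell was Fkbp5, a co-chaperone of steroid receptors. It had 196.7 and 184.7 normalized counts in G2, against 1014.3 and 978.2 in G0, 5.22-fold lower (adjusted p = 0.000475, limma). The mineralocorticoid receptor gene Nr3c2 and the aldosterone-induced kinase gene Sgk1, chosen after their values were seen, did not pass. Nr3c2 had 126.1 and 96.8 normalized counts in G2, against 96.2 and 131.0 in G0 (adjusted p = 0.966), and Sgk1 had 257.2 and 334.3 in G2, against 238.6 and 163.5 in G0 (adjusted p = 0.213, limma). Hsd11b2, the enzyme that shields the mineralocorticoid receptor from glucocorticoids and was also chosen after its values were seen, lay between 4.9 and 8.8 normalized counts in all 4 libraries.

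Atp12a encodes the colonic H+/K+ pump, which exchanges luminal potassium for protons, on chromosome 14 from 56364669 to 56388551. It had 181.5 and 40.1 normalized counts in G2, against 9.8 and 11.2 in G0. Both G2 libraries were higher, replicate 1 being 4.53-fold above replicate 2, and the group difference passed narrowly (log2 fold change 2.92, SE 0.68, adjusted p = 0.0402, limma). The mean was 110.8 in G2 and 10.5 in G0, a ratio of 10.6, or 3.82 without G2 replicate 1 and 17.3 without G2 replicate 2. The call was lost after quantile normalization (adjusted p = 0.0699) and on the deposited log2 values (adjusted p = 0.0840, limma). It was also lost without an intensity trend (0.149) and without a filter (0.259, limma).

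Of 9 genes tested for other ion pumps, their FXYD modulators and luminal or basolateral potassium channels, 1 rose and 1 fell. Their median was 0.01, and of all genes tested 5.93% rose and 4.56% fell. Fxyd4, a modulator of the Na+/K+ pump in distal colon and kidney, had 9.1 and 31.3 normalized counts in G2, against 0.0 and 1.0 in G0 (adjusted p = 0.0321, limma), 40.8-fold higher on pooled counts, with counting bounds of 6.92 and 1649. The ratio of means was 61.6 without G2 replicate 1, 17.9 without G2 replicate 2 and 19.9 without G0 replicate 1. The call of Fxyd4 was lost on the deposited log2 values (adjusted p = 0.0528), without an intensity trend (0.0903) and without a filter (0.177, limma). Fxyd4 passed the filter on low values through the G2 libraries alone. Fxyd5, another modulator of the Na+/K+ pump, had 78.7 and 132.9 in G2, against 253.3 and 423.6 in G0, 3.20-fold lower (adjusted p = 0.0289, limma). Its call was lost without an intensity trend (adjusted p = 0.127) and without a filter (0.215, limma).

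The carbonic anhydrase genes changed in opposite directions: Car1 rose, 4 other family genes fell, and Car2 stood lower in G2 without passing. Car1, a cytosolic enzyme abundant in colonocytes and red cells, lies on chromosome 3 from 14766214 to 14808365. It had 4018.9 and 508.3 normalized counts in G2, against 38.3 and 106.7 in G0. Both G2 libraries were above both G0 libraries, but the G2 lines differed from each other by 7.91-fold (log2 fold change 4.46, SE 0.91, adjusted p = 0.0264, limma). The means were 2263.6 ± 2482.3 in G2 and 72.5 ± 48.3 in G0 (SD, n = 2 each), a ratio of 31.2, and it was 7.01 without G2 replicate 1, 55.5 without G2 replicate 2 and 59.1 without G0 replicate 2. The call was lost with a robust variance model (adjusted p = 0.176), without an intensity trend (adjusted p = 0.148) and without a filter (adjusted p = 0.252, limma). Of the 1246 stretches of 50 bases in Car1 transcripts, up to 167 also occur in Gm5843, a gene model that was not analysed here, so reads could be split between them.

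Car2, the high-activity cytosolic enzyme, lies on chromosome 3 from 14886269 to 14900770. It had 17100.0 and 17996.0 normalized counts in G2, against 25514.7 and 33375.1 in G0. Both G2 libraries were lower, 1.68-fold on the means, and the difference missed the threshold (log2 fold change -0.73, SE 0.19, adjusted p = 0.0547, limma) with a 95% interval of -1.18 to -0.29. It passed where genes needed a mean of at least 5 normalized counts (adjusted p = 0.0428) and with a robust variance model (adjusted p = 0.0345, limma). Car4, the enzyme anchored to the outer face of the luminal membrane, had 6 counts in G2 replicate 1, and 0 in G2 replicate 2 and in both G0 libraries (adjusted p = 0.450, limma). Its level in the other 3 libraries was not detectable at this depth. The neighbours of Car4, Znhit3 and Usp32, did not pass (adjusted p = 0.53 and 0.191, limma).

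Car1 and Car2 share a cluster on chromosome 3 with Car13 and Car3, and their stretch of highest similarity is shown because the pair stood on opposite sides, 1 gene higher and the other lower in G2. The lines give 60 bases of each coding sequence from GENCODE M21, coding positions 313 to 372 of Car1 and 310 to 369 of Car2, and capitals mark the 11 mismatches.
Car1 coding sequence: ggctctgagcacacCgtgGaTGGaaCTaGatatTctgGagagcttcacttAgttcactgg
Car2 coding sequence: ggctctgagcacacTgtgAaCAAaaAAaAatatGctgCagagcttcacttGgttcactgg
Over all 777 aligned bases the coding sequences were 64.2% identical, and no stretch of 50 bases was shared between them. Car13, a cytosolic enzyme on the far side of Car1, had 624.3 and 596.3 normalized counts in G2, against 602.9 and 520.1 in G0 (adjusted p = 0.655, limma). Car3, which lies between Car1 and Car2, had 10.1 and 12.7 in G2, against 2.0 and 1.0 in G0 (adjusted p = 0.0552, limma).

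Of 10 other carbonic anhydrase genes tested, 0 rose and 4 fell, against 5.93% and 4.56% of all genes tested. Their median was -0.08. Car12, a membrane enzyme with its catalytic domain outside the cell, had 16.1 and 36.2 normalized counts in G2, against 968.2 and 792.3 in G0. It was 33.7-fold lower in G2, or 54.6-fold without G2 replicate 2 (log2 fold change -5.12, SE 0.38, adjusted p = 0.000607, limma). Car8, a family protein without catalytic activity, had 12.1 and 9.8 in G2, against 79.5 and 104.6 in G0, 8.42-fold lower (adjusted p = 0.00506, limma). The mitochondrial enzyme gene Car5b had 15.1 and 21.5 in G2, against 70.7 and 81.3 in G0, 4.15-fold lower (adjusted p = 0.0173, limma). Without a filter the calls of Car12, Car8 and Car5b were lost (adjusted p = 0.0885, 0.0917 and 0.126, limma). Car9, a membrane enzyme induced by hypoxia, had 213.8 and 822.0 in G2, against 2039.4 and 4132.3 in G0, 5.96-fold lower (adjusted p = 0.0320, limma). That ratio was 3.75 without G2 replicate 1, 14.4 without G2 replicate 2 and 3.94 without G0 replicate 2. The call of Car9 was lost after quantile normalization (adjusted p = 0.0502) and with a robust variance model (0.176). It was also lost without an intensity trend (0.16) and without a filter (0.267, limma). Per kilobase of exon Car2 was the most abundant of the family, at 7245 normalized counts in G2 and 12157 in G0. Car1 was second in G2, at 407 to 3220 per kilobase, and in G0 it stood at 30.7 to 85.5, below Car9, Car13 and Car12.

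**Figure D2:**
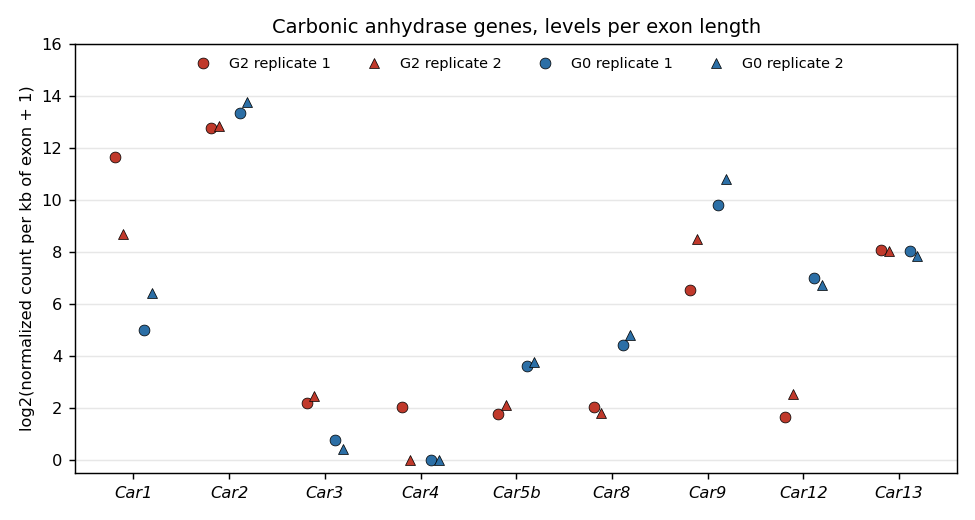
Levels of 9 carbonic anhydrase genes per kilobase of merged exon, as log2(value + 1), in the G2 libraries (red, left of each pair) and the G0 libraries (blue); circles are replicate 1 and triangles replicate 2. Car2 is highest throughout, Car1 lies between 407 and 3220 per kilobase in G2, and Car12 and Car9 lie lower in both G2 libraries.

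Ordered by level per kilobase of exon, the 10 transport genes ran in G2 from Car2 through Car1, Scnn1a, Slc9a4, Slc9a3, Cftr, Slc9a2, Atp12a and Car4 to Slc26a3. The neighbours Car1 and Scnn1a overlapped between libraries in G2, as did Slc9a2 and Atp12a, and Car4 and Slc26a3 were both at 0 in G2 replicate 2. In G0 the order ran from Car2 through Scnn1a, Car1, Cftr, Slc9a4, Slc9a2, Slc9a3 and Atp12a to Car4 and Slc26a3 at 0. There the values of Car1 (30.7 to 85.5) enclosed those of Cftr and Slc9a4, and those of Slc9a2 and Slc9a3 overlapped. The mean level per kilobase of Slc9a3 was 104 in G2 and 5.88 in G0, and that of Slc9a4 was 383 in G2 and 37.5 in G0.

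Among 8 genes of short-chain fatty acid and solute uptake tested, 2 rose and 1 fell, against 5.93% and 4.56% of all genes tested. Their median was 0.22. Slc5a8, the sodium-coupled monocarboxylate carrier of the luminal membrane, had 113.0 and 128.0 normalized counts in G2, against 30.4 and 14.2 in G0. With all libraries it was 5.40-fold higher in G2 (adjusted p = 0.0137, limma), and 8.47-fold without G0 replicate 1. The call of Slc5a8 was lost without an intensity trend (adjusted p = 0.0669) and without a filter (0.155, limma). Slc6a14, a sodium- and chloride-coupled amino acid carrier, had 234.0 and 244.4 in G2, against 123.7 and 80.2 in G0, 2.34-fold higher (adjusted p = 0.0329, limma). This call too was lost without an intensity trend (adjusted p = 0.103) and without a filter (0.172, limma). Slc16a1 encodes MCT1, a proton-coupled monocarboxylate carrier, and had 742.3 and 704.7 in G2, against 1420.8 and 1370.3 in G0, 1.93-fold lower (adjusted p = 0.00739, limma). Without an intensity trend it did not pass (adjusted p = 0.0598, limma). Over the 7 lists together, 10 of 71 genes tested rose and 10 fell, with a median of 0.02. Of all genes tested 5.93% rose and 4.56% fell, and the lists were chosen with earlier results of these data known. Among the list calls, Slc26a1, Scnn1g and Fxyd4 passed the filter on low values through G2 alone and Adora2b through G0 alone. Without a filter the lists held 1 call higher and 3 lower, and without an intensity trend 4 and 6.

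**Figure D3:**
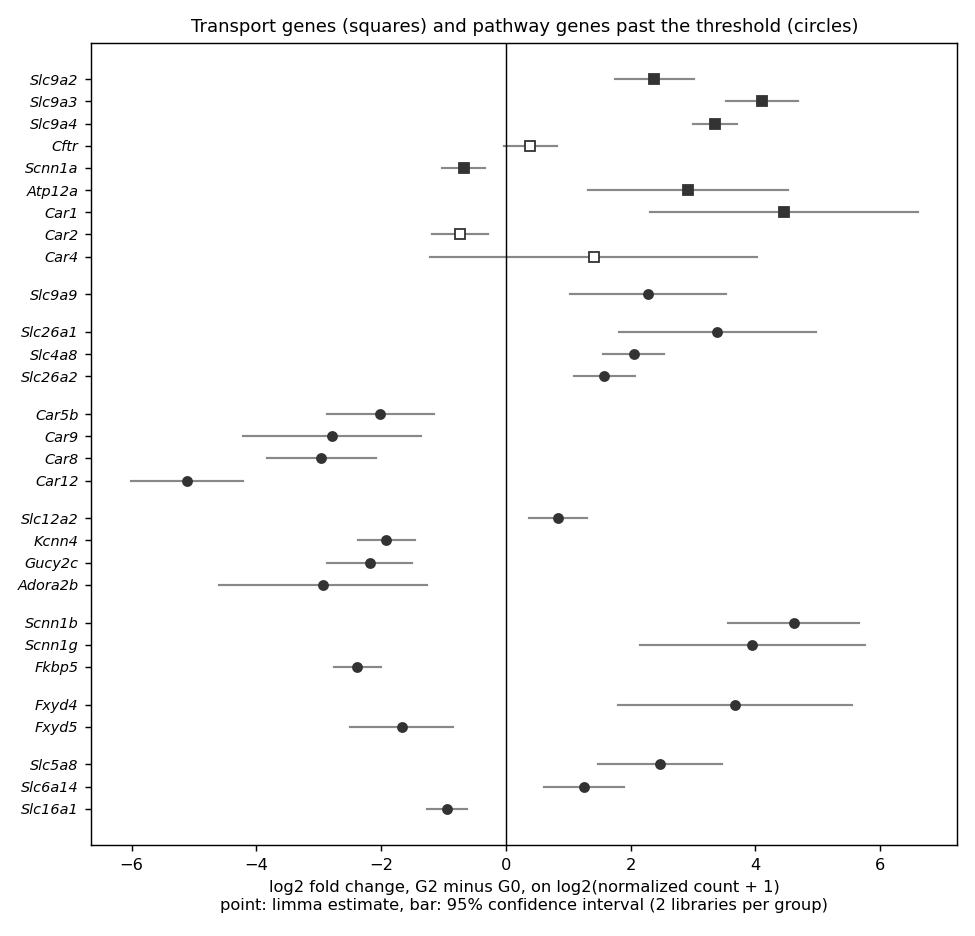
Log2 fold change of G2 minus G0 with its 95% interval from limma, for 9 transport genes (squares) and the 20 pathway genes that passed the threshold (circles); filled symbols passed at an adjusted p under 0.05 and open ones did not. The 3 Slc9a genes lie between 2.38 and 4.11, and the carbonic anhydrases span -5.12 for Car12 to 4.46 for Car1.

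The label colonocyte was checked against 14 markers of the absorptive colonocyte, which did not move as one. The most abundant stood lower in G2: Lgals4, an intestinal galectin, had 9677.5 and 10102.1 normalized counts in G2, against 18385.1 and 24150.6 in G0 (adjusted p = 0.0124, limma). Ceacam1, a cell adhesion protein of the brush border, had 25455.4 and 24292.8 in G2, against 50266.5 and 51840.3 in G0 (adjusted p = 0.0137, limma). Others were low or at 0 in most libraries. Krt20, a keratin of the upper crypt, had 93.8 and 4.9 normalized counts in G2, against 1.0 and 0.0 in G0 (adjusted p = 0.0880, limma). The water channel gene Aqp8 had 15.1 and 0.0 in G2, against 1.0 and 0.0 in G0 (adjusted p = 0.501, limma). Alpi, Saa1 and Cyp2c55 had between 5.0 and 9.1 in G2 replicate 1 and a count of 0 in the other 3 libraries, and Tmigd1 had a count of 0 in all 4. All 14 markers had a row; 4 of the 11 tested fell (Lgals4, Ceacam1, Prdx6 and Emp1) and 0 rose, and the list summed to 39847.7 and 38603.8 in G2 and to 80139.9 and 89911.4 in G0. The intestinal factor gene Cdx2 had 270.3 and 186.7 in G2, against 2394.9 and 3198.8 in G0 (adjusted p = 0.000430), and the brush border gene Vil1 had 1730.6 and 786.9 in G2, against 4733.7 and 6383.3 in G0 (adjusted p = 0.0103, limma). Cdh1, the epithelial cadherin, had 25575.4 and 24578.3 in G2, against 14095.2 and 13727.5 in G0 (adjusted p = 0.0171, limma). The exchanger genes and Car1 stood higher in the same lines in which Cdx2 and Vil1 stood lower, and the part of these markers' cells in that was not tested.

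Some transport genes differed between the G2 lines as well. Car1 was 7.91-fold and Atp12a 4.53-fold higher in G2 replicate 1 than in G2 replicate 2, where 2.27% of the 13981 genes were at least 4-fold higher on the log2(normalized count + 1) scale. Car4, like Aqp8, Alpi, Saa1 and Cyp2c55, passed the filter on low values through G2 replicate 1 alone, so its excess there was set by the filter. The same ratio was 1.25 for Slc9a2, 0.91 for Slc9a3 and 1.02 for Slc9a4. With 1 library per line these differences have no test, and the part of the cells that express Krt20 or Aqp8 in the levels of any transport gene was not tested.

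**Figure D4:**
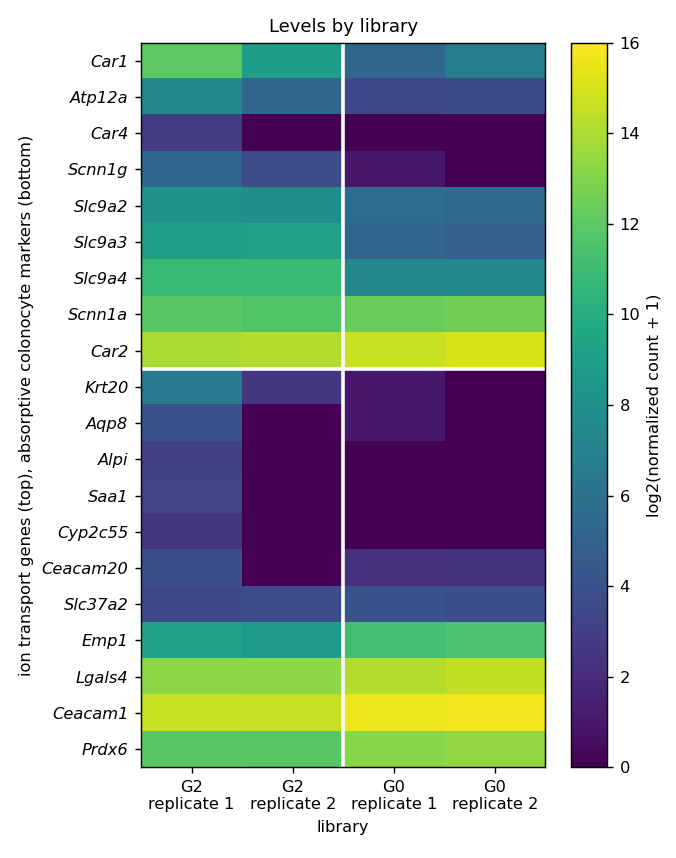
Levels as log2(normalized count + 1) in the G2 libraries (left columns) and the G0 libraries (right columns). The top rows are the transport genes other than Cftr and Slc26a3, with the ENaC gene Scnn1g added. The bottom rows are the 11 tested markers of absorptive colonocytes. Car1, Atp12a, Krt20 and Aqp8 are highest in G2 replicate 1, and Lgals4, Ceacam1, Prdx6 and Emp1 are lower in both G2 libraries. Aqp8 passed the filter on low values through G2 replicate 1 alone.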

How the data were processed

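Per the labels' protocols, RNA of each colonoid line was purified on RNeasy columns, and BGI made the libraries. The processing notes of the submitters list mm10 and the tools DESeq2 1.32.0 and R 3.5.2, the assembler StringTie 2.1.1, the aligner HISAT2 2.1.0 and bcl2fastq 2.20.0. No source used here gives the annotation, the strand setting or the read filters. The authors deposited log2 values for 16857 genes, whose lowest value, 6.508, is the same in each library, as after a variance-stabilizing transformation.

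Inverting that transformation from its floor gave normalized counts, and dividing out 1 factor per library made 100% of values whole within 0.001. These may be rounded estimates, so no count model was run, and floors and counting bounds (95%) cover counting error only. The 95% intervals of log2 fold changes are from limma and rest on the spread between lines. limma 3.58.1 in R 4.3.3 (eBayes with intensity trend, two-sided, group as the only term) used log2(normalized count + 1) over the 13981 genes whose mean reached 1. Such fold changes understate the change of low genes. The fit was tested on simulated data. Folds in words are ratios of mean normalized counts, or of pooled counts where counting bounds are given. Levels per kilobase used merged GENCODE M21 exons, and neighbours are the nearest protein-coding RefSeq genes.

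By rule the text names the 10 genes, each pathway gene past the threshold, the neighbours with a row, Tert and cell type markers. The Y-linked genes lie outside this rule, and for the other genes the text says which were chosen later. Some genes of the lists are counted but not reported here by name. The members and lists were chosen with earlier results of these data known. Alternatives were other pseudocounts, filters, scalings and variance models, the deposited values, a replicate block and leaving out each library.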

Additional observations from a re-analysis of the deposited data

How the results depend on the processing

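Every tested transport gene kept its direction under each alternative in which it could be fitted. Slc9a3 and Slc9a4 passed in all 10 alternatives that kept the 4 libraries (log2 fold changes 2.18 to 4.17 and 2.56 to 3.41), and 161 of 200 such values of the 20 pathway genes passed too. Over all genes 1467 calls became 225 with no filter on low values, 623 without an intensity trend and 3503 with the replicate block. The calls among the 10 genes became 2 higher and 0 lower with no filter and 3 higher and 0 lower without the trend. There were 2 lower with a mean of at least 5, with robust eBayes and with the block. Pathway calls became 1 higher and 3 lower with no filter, 4 and 6 without the trend, and 16 and 13 with the block. With no filter the calls of Slc9a2 (2.38, adjusted p = 0.0858), Scnn1a (-0.67, 0.147), Atp12a (2.92, 0.259) and Car1 (4.46, 0.252) were lost. Those of Scnn1a (-0.67, 0.139), Atp12a (2.92, 0.149) and Car1 (4.46, 0.148) were lost without the trend, and that of Car1 with robust eBayes (4.46, 0.176). Atp12a was lost after quantile normalization (2.74, 0.0699) and on the deposited log2 values (0.93, 0.0840). Car2 (-0.73) passed with a mean of at least 5, with robust eBayes (0.0345) and with the replicate block (0.00302). The cause of these shifts was not tested. No label pairs the same-numbered libraries of the groups. Their deviations from the group means correlated at 0.109 over 13981 genes, and with the block the Slc9a calls were kept. A low correlation over all genes cannot exclude an effect shared by same-numbered libraries in some genes, and such an effect was not tested.

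Leaving out 1 library at a time gave 0 to 2 calls over all genes, and 0 to 0 among the 10 genes and the pathway lists in either direction. The log2 fold changes then ran from 2.22 to 2.54 for Slc9a2, 3.94 to 4.28 for Slc9a3, 3.32 to 3.37 for Slc9a4, -0.77 to -0.57 for Scnn1a, 1.84 to 3.99 for Atp12a and 2.97 to 5.95 for Car1. Such a fit holds 1 residual degree of freedom and takes the lone library of its group to vary like the other group. Car4 could not be fitted with a mean of at least 5 or without G2 replicate 1. Depth limits Slc26a3 and Car4, at or near a floor of 3 counts per library.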
